A study of Mus musculus with 32 samples.

Results

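The CXC chemokine genes measured on these arrays were Cxcl1, Cxcl2, Cxcl3, Ppbp, Cxcl9, Cxcl10, Cxcl11 and Cxcl16. They were chosen by name, as the 8 genes to which the scanner files assign 11 of the 55681 probes of the array, and all 8 passed the filter on dim probes. The cells were bone marrow-derived macrophages (BMDMs) of wild-type (WT) or Ifnar1-/- mice, the latter without a chain of the receptor through which type I interferons act. Each genotype was analysed untreated and after 6 h with LPS or IFNβ alone, with zVAD alone, with either stimulus plus zVAD (LPS+zVAD or IFNβ+zVAD), and with Nec-1 added to each such pair (LPS+zVAD+Nec-1 or IFNβ+zVAD+Nec-1). The 16 groups held 2 arrays each, 32 in all, and this small number limits the precision of every value. LPS is a bacterial cell wall component that stimulates TLR4, zVAD blocks caspases and Nec-1 blocks RipK1, a kinase needed for necroptosis. The sources differ on dose: for LPS the sample labels have 100 ng/mL, the figure legends 1 ng/mL and the methods 10 ng/mL, and for IFNβ the same sources have 1000 U/mL, 100 U/mL and 10 ng/mL. The legends state 50 µM for zVAD and 10 µM for Nec-1. Ifnar1 is deleted in all cells of the knockout mice, not in macrophages alone, so the cells also differentiated without it. The labels do not say whether the arrays of a group came from separate mice or cultures, and the p-values then measure the spread between arrays, which may be technical.

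CXC chemokines are small secreted proteins that direct the movement of leukocytes through receptors on those cells. CXCL1, CXCL2, CXCL3 and the product of Ppbp (CXCL7, stored in platelets) carry an ELR motif, bind CXCR2 and attract neutrophils. CXCL9, CXCL10 and CXCL11 bind CXCR3, attract activated T cells and NK cells, and are known as interferon-induced genes. In macrophages LPS activates NF-κB, and it also induces IFNβ, which acts back on the cells through IFNAR1 and the transcription factor complex ISGF3. CXCL16 stands apart from both classes: it is a membrane-bound chemokine that binds CXCR6 and is released by the proteases ADAM10 and ADAM17.

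The promoters of members whose expression moved are shown first, since the classes are usually told apart by the transcription factors that reach them. The sequences are from RefSeq (assembly GRCm38.p6) and run 5′ to 3′ on the gene's own strand. Capitals mark matches on either strand to the NF-κB consensus or to the core of the interferon-stimulated response element (ISRE), written as GAAA, any 2 bases, GAAA. The first set covers 200 bases ending 50 bases past the transcription start for the neutrophil-attracting genes Cxcl1 (chr5:90891095-90891294, plus strand), Cxcl2 (chr5:90903749-90903948, plus strand) and Cxcl3 (chr5:90785951-90786150, plus strand).
Cxcl1: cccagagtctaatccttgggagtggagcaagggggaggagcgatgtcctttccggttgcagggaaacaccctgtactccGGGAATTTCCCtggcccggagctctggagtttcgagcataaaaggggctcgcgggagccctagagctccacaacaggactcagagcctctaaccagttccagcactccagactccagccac
Cxcl2: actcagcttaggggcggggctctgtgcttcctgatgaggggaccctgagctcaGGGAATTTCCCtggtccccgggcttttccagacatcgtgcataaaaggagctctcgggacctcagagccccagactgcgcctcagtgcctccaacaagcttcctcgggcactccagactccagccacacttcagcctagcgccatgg
Cxcl3: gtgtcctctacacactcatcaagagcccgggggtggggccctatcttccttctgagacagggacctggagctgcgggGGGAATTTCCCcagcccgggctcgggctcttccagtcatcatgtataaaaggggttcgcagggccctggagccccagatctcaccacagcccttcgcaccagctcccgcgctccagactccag
Each of these windows held the same NF-κB stretch, in which matches on both strands overlap. The match began 71 bases before the start in Cxcl1, 97 in Cxcl2 and 73 in Cxcl3, and no ISRE core was found in the 300 bases examined for each. The whole 300 bases are shown for the CXCR3-binding genes Cxcl9 (chr5:92328030-92328329, minus strand) and Cxcl10 (chr5:92348840-92349139, minus strand).
Cxcl9: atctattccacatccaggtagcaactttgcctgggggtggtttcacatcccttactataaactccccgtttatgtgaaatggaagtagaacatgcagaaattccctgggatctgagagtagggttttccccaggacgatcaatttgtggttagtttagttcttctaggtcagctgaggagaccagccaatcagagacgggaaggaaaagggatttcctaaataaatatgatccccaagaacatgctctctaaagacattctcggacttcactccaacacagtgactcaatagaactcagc
Cxcl10: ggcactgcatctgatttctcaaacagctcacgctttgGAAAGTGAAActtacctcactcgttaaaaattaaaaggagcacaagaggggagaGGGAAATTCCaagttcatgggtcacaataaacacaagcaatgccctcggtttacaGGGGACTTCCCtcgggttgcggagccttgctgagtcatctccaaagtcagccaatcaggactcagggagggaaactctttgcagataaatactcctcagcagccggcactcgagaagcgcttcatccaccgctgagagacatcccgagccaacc
The Cxcl10 window held an ISRE core 213 bases before the start, an NF-κB match 159 bases before it and overlapping NF-κB matches from 104 bases before it. Neither motif was found in the Cxcl9 window or in that of Ppbp. Only these strings were searched, so a missing match is no proof that a site of another form, or outside the window, is absent. Of 32851 RefSeq promoter windows of this length, 3.44% held the ISRE core and 8.46% the NF-κB consensus, so a match is a description of the letters and no proof of a site. Windows were matched for 6 of the 8 members, with none for Cxcl11 and Cxcl16.

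Values are quantile-normalized log2 intensities of a probe, and levels of different probes are not compared. Where a gene has more than 1 probe the brightest is used, and a change is the log2 difference between group means tested by limma over 15218 genes. A member is called changed at a Benjamini-Hochberg adjusted p under 0.05. The used probes lie on chromosome 5 of the mm9 assembly, Cxcl1 at chr5:91321845-91321904, Cxcl2 at chr5:91334534-91334593, Cxcl3 at chr5:91216694-91216753, Ppbp at chr5:91198970-91199029, Cxcl9 at chr5:92752796-92752855, Cxcl10 at chr5:92775781-92775840 and Cxcl11 at chr5:92788567-92788626, except for Cxcl16 at chr11:70267780-70267839.

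The arrays lay on 4 slides, each with the 8 treatments of 1 genotype and 1 replicate number, so a difference between the genotypes in 1 condition and a difference between slides cannot be told apart. A change measured inside 1 genotype compares arrays of the same slides, and a comparison of such changes removes a shift shared by all arrays of a slide. A response that itself differs between slides is not removed, and cannot be told apart from genotype in that comparison. The slides of the 2 genotypes were also scanned on different days. The array labelled Ifnar1-/- LPS+zVAD+Nec-1 replicate 2 stood apart: over all genes it correlated at 0.947 with its own replicate and at 0.993 with Ifnar1-/- IFNβ+zVAD+Nec-1 replicate 2, where the other pairs of replicates correlated at 0.973 to 0.991. Calls of members that use this array, and calls that change when it is left out, are given with and without it, a choice made after the values were seen. Since 1 fit pools the spread over all groups, this array also enters the p-values of comparisons that do not use its group. Those are given with it only, unless a call changes. Of the 3 probes of Ifnar1 itself, 2 were lower on every Ifnar1-/- array than on any WT array, at 7.29 to 8.73 against 9.94 to 11.88 and at 5.82 to 7.35 against 7.88 to 10.23. The third overlapped, at 11.16 to 12.44 against 9.02 to 14.76. All 3 were above background on 15 or 16 of the 16 Ifnar1-/- arrays, where they lie relative to the deleted part is not given in the sources used here, and genotype and slide cannot be told apart in these levels. IFNβ did, however, change no gene in Ifnar1-/- cells in limma (0 called, 220 at an unadjusted p under 0.05). All 6 macrophage markers were above background on every array, and summed to 19.1 to 19.45 in WT and 19.04 to 19.4 in Ifnar1-/- cells. Sums of markers are the log2 of summed intensities, so the brightest markers weigh most. Single macrophage markers differed: Fcgr1 had a mean of 15.32 in WT and 9.96 in Ifnar1-/- cells, Cd68 17.22 and 17.79, and Itgam 13.68 and 14.47. The 8 neutrophil and precursor markers summed to 13.52 to 15.54 in WT and 15.6 to 16.76 in Ifnar1-/- cells, although Ly6g, which defines mature neutrophils, was above background on 16 WT arrays and 1 Ifnar1-/- array. The 5 stromal markers summed to 8.77 to 10.38 and 10.88 to 12.62, with Pdgfra above background on 0 of the 32 arrays. The T cell markers summed to 12.26 to 13.47 in WT and 11.83 to 13.16 in Ifnar1-/- cells. Those of dendritic cells summed to 15.67 to 16.42 and 15.15 to 16.03, and those of B cells to 7.13 to 8.65 and 7.29 to 8.54. The part of these markers in the differences between genotypes below was not tested. In bulk samples fewer expressing cells and less RNA per cell cannot be told apart.

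**Figure D1:**
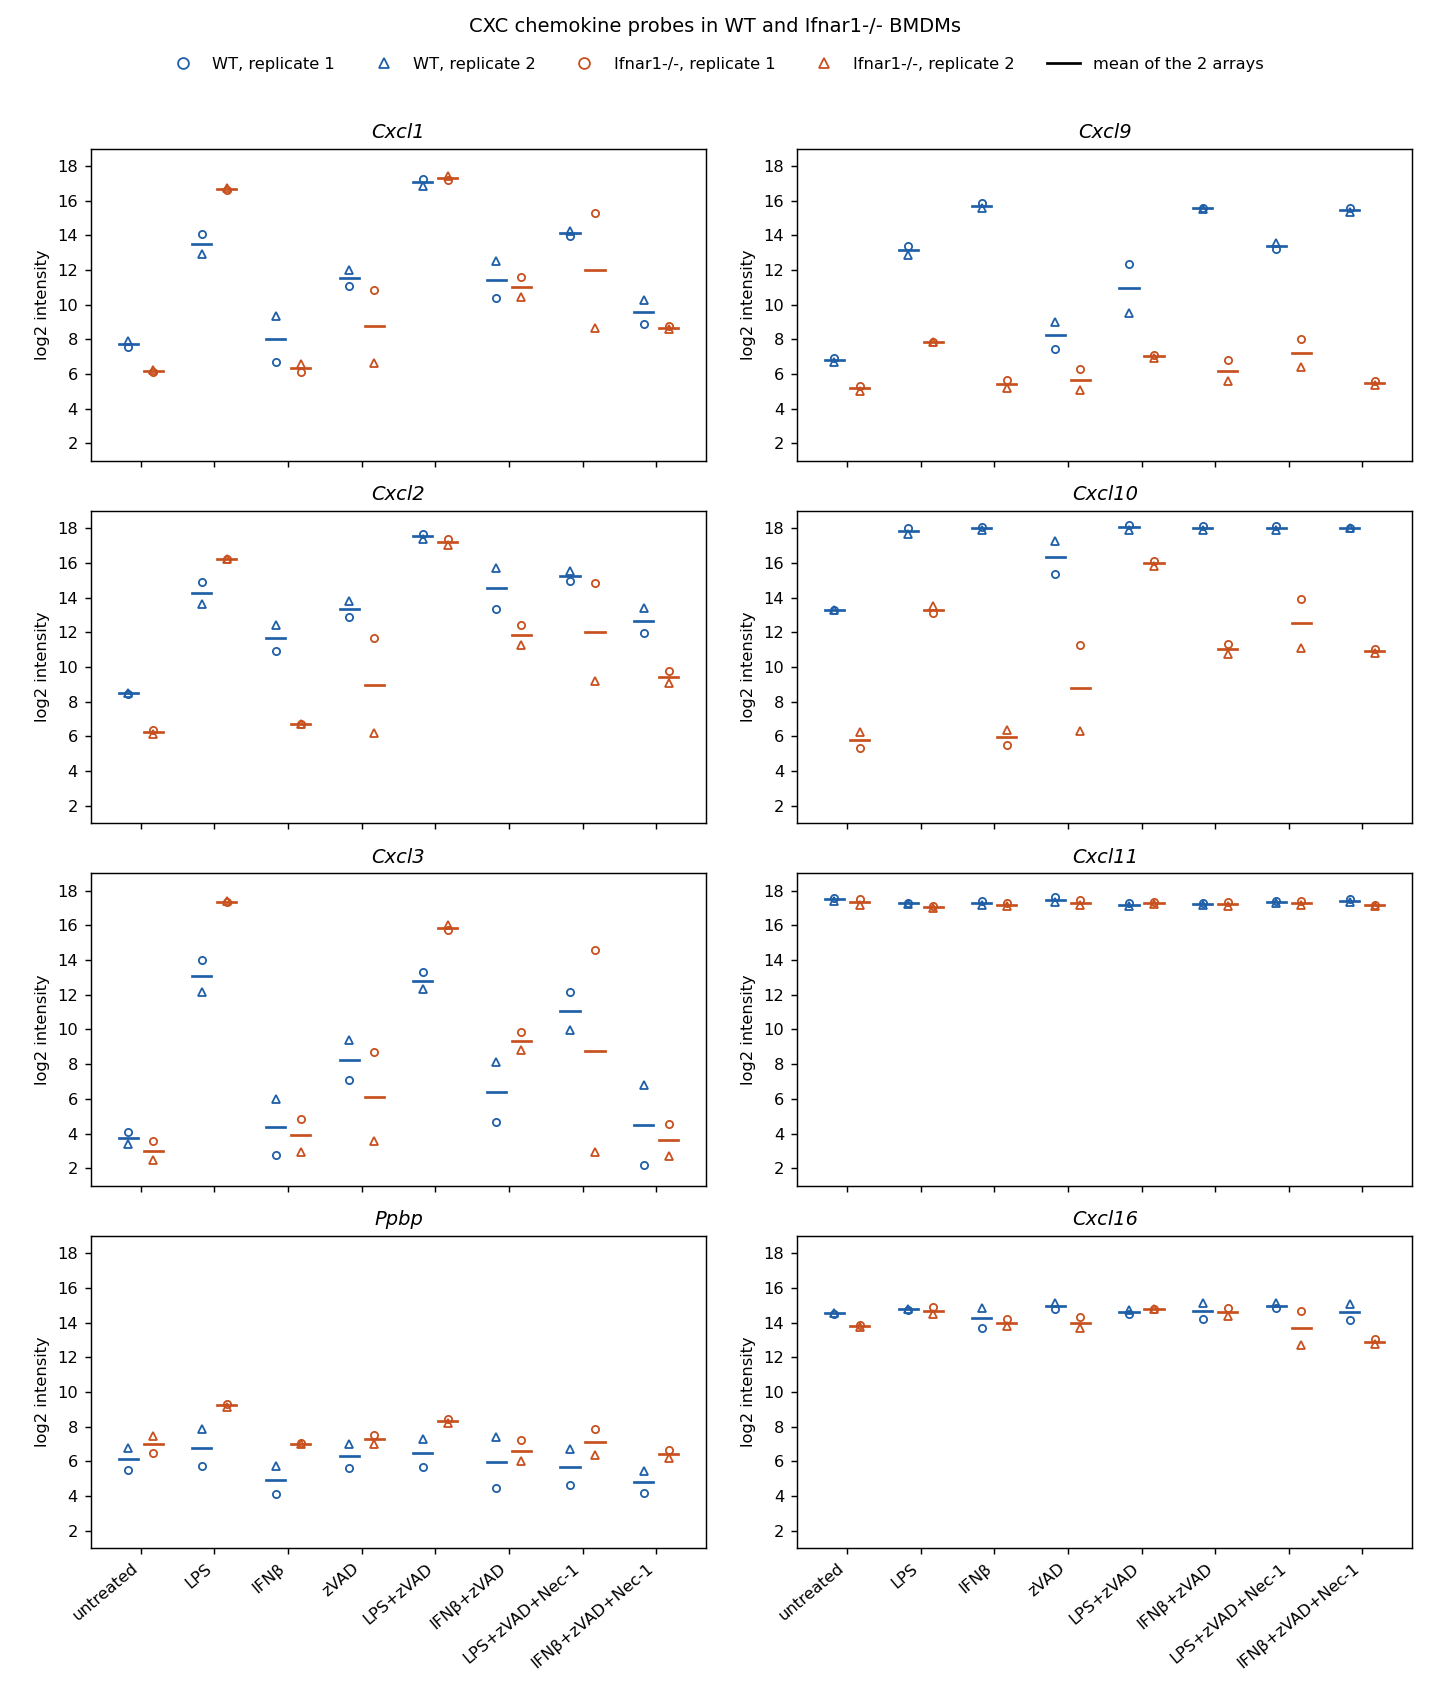
Log2 intensity of the used probe of each of the 8 CXC chemokine genes (vertical axis) in the 8 treatments (horizontal axis), with WT in blue and Ifnar1-/- in orange, replicate 1 as circles, replicate 2 as triangles and bars at the mean of the 2 arrays. Cxcl9 stays between 5.02 and 8.00 on all Ifnar1-/- arrays and reaches 15.84 in WT, Cxcl1, Cxcl2 and Cxcl3 reach their highest levels in LPS or LPS+zVAD in both genotypes, and Cxcl11 stays between 16.98 and 17.65.

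Among the neutrophil-attracting genes, Cxcl1 encodes KC, a principal ligand of CXCR2 in mice. In WT cells its log2 intensity was 7.55 and 7.91 on the untreated arrays, 14.09 and 12.94 with LPS, 17.25 and 16.86 with LPS+zVAD, and 13.99 and 14.25 with LPS+zVAD+Nec-1. On the Ifnar1-/- arrays it was 6.13 and 6.21, 16.60 and 16.71, 17.19 and 17.42, and 15.30 and 8.67 in the same order. The LPS arrays lay above the untreated arrays in both genotypes, and the highest group was LPS+zVAD in both. With IFNβ alone the arrays read 6.71 and 9.33 in WT and 6.11 and 6.58 in Ifnar1-/- cells, which overlapped the untreated arrays in WT. With zVAD alone they read 11.06 and 11.98 in WT but 10.86 and 6.64 in Ifnar1-/- cells, a pair far apart. The remaining groups were IFNβ+zVAD, at 10.38 and 12.51 in WT and 11.58 and 10.47 in Ifnar1-/- cells, and IFNβ+zVAD+Nec-1, at 8.90 and 10.25 and at 8.75 and 8.60.

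Cxcl2 encodes MIP-2, a second CXCR2 ligand that macrophages secrete. Its WT values were 8.47 and 8.50 untreated, 14.88 and 13.64 with LPS, 17.70 and 17.39 with LPS+zVAD, and 14.95 and 15.56 with LPS+zVAD+Nec-1. Its Ifnar1-/- values were 6.37 and 6.12, 16.23 and 16.21, 17.40 and 17.06, and 14.86 and 9.22. As for Cxcl1, LPS+zVAD was the highest group in both genotypes. With IFNβ the WT arrays read 10.94 and 12.41, above the untreated pair, and the Ifnar1-/- arrays 6.73 and 6.74. With IFNβ+zVAD they read 13.37 and 15.70 in WT and 12.43 and 11.30 in Ifnar1-/- cells, and with IFNβ+zVAD+Nec-1 11.94 and 13.43 and 9.77 and 9.11. The zVAD pair was again far apart in Ifnar1-/- cells, at 11.67 and 6.22, against 12.90 and 13.79 in WT.

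Cxcl3 encodes a further CXCR2 ligand, and its probe was above background on 0 of 2 untreated Ifnar1-/- arrays. WT cells had 4.11 and 3.42 untreated, 14.02 and 12.16 with LPS, 13.32 and 12.33 with LPS+zVAD, and 12.16 and 9.95 with LPS+zVAD+Nec-1. Ifnar1-/- cells had 3.56 and 2.48, 17.33 and 17.43, 15.73 and 16.01, and 14.58 and 2.94. In contrast to Cxcl1 and Cxcl2, the highest group of Cxcl3 was LPS without zVAD, with the LPS and LPS+zVAD pairs overlapping in WT and separate in Ifnar1-/- cells. Ppbp, whose product is best known from platelets, was dim, with 29 of 32 arrays above background. Its WT arrays lay between 4.13 and 7.85, with replicate 2 above replicate 1 in each of the 8 treatments. Its Ifnar1-/- arrays read 6.49 and 7.46 untreated, 9.33 and 9.15 with LPS, and 8.46 and 8.21 with LPS+zVAD. The 6 platelet and megakaryocyte markers summed to 9.18 to 10.03 in WT and 9.09 to 9.84 in Ifnar1-/- cells, and their part in the Ppbp levels was not tested.

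Of the CXCR3-binding genes, Cxcl9 encodes MIG, named for its induction by interferon γ. Its WT values were 6.95 and 6.71 untreated, 13.40 and 12.85 with LPS, 15.84 and 15.57 with IFNβ, and 12.35 and 9.53 with LPS+zVAD. The IFNβ+zVAD pair read 15.57 and 15.53, the LPS+zVAD+Nec-1 pair 13.23 and 13.54, the IFNβ+zVAD+Nec-1 pair 15.58 and 15.37, and the zVAD pair 7.46 and 9.01. All 3 IFNβ treatments therefore lay above all LPS treatments in WT cells, with no overlap. The Ifnar1-/- arrays had 5.32 and 5.02 untreated, 7.85 and 7.84 with LPS, 5.63 and 5.21 with IFNβ, and 7.12 and 6.92 with LPS+zVAD. The highest Ifnar1-/- array, 8.00 with LPS+zVAD+Nec-1, was below the lowest WT array of every treatment with LPS or IFNβ.

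Cxcl10 encodes IP-10, and its untreated WT arrays both read 13.31. WT cells had 18.02 and 17.68 with LPS, 18.09 and 17.93 with IFNβ, 18.22 and 17.91 with LPS+zVAD, and 15.38 and 17.30 with zVAD. In the 6 WT groups with LPS or IFNβ only 20 to 127 of the 55681 probes of an array were brighter than this one, and no spot was marked as saturated (0 on each array). These 6 groups lay within 17.68 to 18.22 and could not be put in order. Ifnar1-/- cells had 5.34 and 6.24 untreated, 13.10 and 13.54 with LPS, 5.49 and 6.39 with IFNβ, and 16.14 and 15.85 with LPS+zVAD. The order in Ifnar1-/- cells was thus LPS+zVAD above LPS above untreated, with the IFNβ pair overlapping the untreated pair. The IFNβ+zVAD pair read 11.31 and 10.74, the LPS+zVAD+Nec-1 pair 13.95 and 11.11, the IFNβ+zVAD+Nec-1 pair 11.05 and 10.81, and the zVAD pair 11.25 and 6.29.

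Cxcl11 and Cxcl16 varied least. The used Cxcl11 probe read 16.98 to 17.65 on all 32 arrays, and its second probe 10.75 to 12.29. RefSeq annotates Cxcl11 as a transcribed pseudogene in the mouse reference assembly. The used probe holds this stretch, shown because the capitals mark a run of 20 bases that other probes and genes share.
Cxcl11 probe: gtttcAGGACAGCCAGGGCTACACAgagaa
Runs of 20 bases of this probe occur in 7 probes of other genes and in 22 of the 32851 promoter windows (0.067%), while no other member probe shares any (0 of its runs). Their part in the level of this probe was not tested. Cxcl16 lay between 12.69 and 15.14, with 14.50 and 14.55 in untreated WT cells and 13.88 and 13.76 in untreated Ifnar1-/- cells. Its lowest arrays, 12.69, 12.78 and 13.03, were those of Ifnar1-/- cells with LPS+zVAD+Nec-1 replicate 2 and with IFNβ+zVAD+Nec-1.

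Compared with untreated WT cells, LPS raised 3 neutrophil-attracting and 2 CXCR3-binding genes. Limma called 5 of the 8 members, all higher, where 42.2% of all genes tested were called. Cxcl1 rose by 5.78 log2 (standard error 1.46, adjusted p = 0.00358), which is 55-fold. Cxcl2 rose by 5.78 (adjusted p = 0.00311) and Cxcl3 by 9.33 (standard error 2.49, adjusted p = 0.00523). Cxcl9 rose by 6.29 (standard error 0.68, adjusted p = 1.22e-06) and Cxcl10 by 4.54 (adjusted p = 0.00152). The change of Cxcl11 was -0.24 (adjusted p = 0.282), and the median of all genes was -0.08, or 0.07 when a shift of each array to one 75th percentile replaced the quantile step.

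IFNβ raised Cxcl9 and Cxcl10 in WT cells. Limma called these 2 members, where 36.2% of all genes were called. Cxcl9 rose by 8.87 log2 (469-fold, adjusted p = 1.74e-08) and Cxcl10 by 4.70 (standard error 1.03, adjusted p = 0.00144). The third CXCR3-binding gene, Cxcl11, differed by -0.21 (adjusted p = 0.361). Among the neutrophil-attracting genes Cxcl2 differed by 3.19 (adjusted p = 0.0921, or 0.0399 with the slide as a replicate block, 0.0221 in a fit of only the arrays compared and 0.0315 without the array that stood apart) and Ppbp by -1.21 (adjusted p = 0.355, or 0.0292 with that block). Set directly against IFNβ, LPS gave higher Cxcl1 (5.49, adjusted p = 0.0109) and Cxcl3 (8.71, adjusted p = 0.0166) and lower Cxcl9 (-2.58, adjusted p = 0.0101), where 21.3% of all genes were called, and Ppbp differed by 1.86 (adjusted p = 0.189, or 0.0033 with the replicate block). All 3 of these calls depend on single arrays, since without WT IFNβ replicate 1 the adjusted p was 0.134 for Cxcl1, 0.146 for Cxcl3 and 0.0682 for Cxcl9. Without WT LPS replicate 1 it was 0.0766 for Cxcl1 and 0.101 for Cxcl3, and without WT LPS replicate 2 it was 0.0798 for Cxcl9.

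With zVAD alone in WT cells no member was called (0 of 8, with 3 at an unadjusted p under 0.05) and 0.00657% of all genes were called by limma. The changes were 3.79 for Cxcl1 (adjusted p = 0.69), 4.86 for Cxcl2 (adjusted p = 0.452) and 3.03 for Cxcl10 (adjusted p = 0.599). LPS+zVAD was called for 5 members against 52.1% of all genes. Cxcl1 rose by 9.32 log2 (641-fold, adjusted p = 2.78e-05), Cxcl2 by 9.06 (adjusted p = 3.06e-05) and Cxcl3 by 9.06 (adjusted p = 0.00484). Cxcl9 rose by 4.11 (adjusted p = 4.94e-05) and Cxcl10 by 4.75 (adjusted p = 6.98e-04). Cxcl11 differed by -0.33 (adjusted p = 0.11, or 0.00812 with the replicate block), a difference of 0.56 in the other direction when a shift of each array to one 75th percentile replaced the quantile step.

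IFNβ+zVAD was called for 3 members in WT cells against 38.4% of all genes. These were Cxcl9 (8.72, adjusted p = 2.39e-08), Cxcl10 (4.70, adjusted p = 0.00132) and, among the neutrophil-attracting genes, Cxcl2 (6.05, adjusted p = 0.00253). Cxcl1 differed by 3.71 (adjusted p = 0.0522, or 0.0276 with the replicate block) and was called without the array that stood apart (adjusted p = 0.00629), which gave 4 members in all. Cxcl11 differed by -0.29 (adjusted p = 0.179, or 0.0194 with the block), and by 0.33 in the other direction under the 75th percentile shift. With LPS+zVAD+Nec-1 limma called 5 members against 41.9% of all genes, namely Cxcl1 (6.39, adjusted p = 0.00169), Cxcl2 (6.77, adjusted p = 8.94e-04), Cxcl3 (7.29, adjusted p = 0.0244), Cxcl9 (6.55, adjusted p = 6.88e-07) and Cxcl10 (4.72, adjusted p = 0.00113). Cxcl3 was not called without WT LPS+zVAD+Nec-1 replicate 1 (adjusted p = 0.145) or without either untreated array (0.0688 and 0.106). With IFNβ+zVAD+Nec-1 limma called 3 against 32.6%, Cxcl9 (8.64, adjusted p = 2.98e-08), Cxcl10 (4.71, adjusted p = 0.00167) and Cxcl2 (4.20, adjusted p = 0.0309). The Cxcl2 call was lost when any of its 4 arrays was left out, with adjusted p from 0.0536 to 0.166. Ppbp differed by -1.32 (adjusted p = 0.321, or 0.0199 with the replicate block).

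In Ifnar1-/- cells LPS raised 5 members, again Cxcl1, Cxcl2, Cxcl3, Cxcl9 and Cxcl10, where 26% of all genes were called. Cxcl1 rose by 10.48 log2 (1430-fold, adjusted p = 9.21e-05) and Cxcl2 by 9.97 (1000-fold, adjusted p = 1.11e-04). Cxcl3 rose by 14.36 (adjusted p = 4.19e-04), and since its untreated arrays were not well above background this is at least 9290-fold. A bound of this kind sets the dim group at the lowest signal of a probe well above background, or at its own signal where that is higher. Cxcl10 rose by 7.53 (adjusted p = 8.21e-05) and Cxcl9 by 2.68 (6.39-fold, adjusted p = 0.00683). The Cxcl9 call was lost without untreated replicate 2 (2.53, adjusted p = 0.0525). Ppbp differed by 2.26 (adjusted p = 0.0908, or 6.7e-04 with the replicate block), and Cxcl11 by -0.30 (adjusted p = 0.222, or 0.0242 with the block).

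With IFNβ alone the Ifnar1-/- cells had no member called (0 of 8, and 0 at an unadjusted p under 0.05), where 0% of all genes were called by limma. With zVAD alone limma also called no member (0, with 1 at an unadjusted p under 0.05) and 0% of all genes. LPS+zVAD was called for 5 members against 29.5% of all genes. Cxcl1 rose by 11.14 (adjusted p = 4.01e-05), Cxcl2 by 10.99 (adjusted p = 3.86e-05) and Cxcl3 by 12.85 (at least 3260-fold, adjusted p = 8.99e-04). Cxcl10 rose by 10.21 (1180-fold, adjusted p = 3.24e-06) and Cxcl9 by 1.85 (adjusted p = 0.0481), a call that was lost when any of its 4 arrays was left out (adjusted p from 0.111 to 0.192). With the replicate block Ppbp (1.36, adjusted p = 0.0183, against 0.316 without it) and Cxcl16 (0.97, adjusted p = 0.0387, against 0.146) were called as well.

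IFNβ+zVAD in Ifnar1-/- cells was called for no member by limma (0, with 4 at an unadjusted p under 0.05) and for 0.00657% of all genes. The changes were 4.86 for Cxcl1 (adjusted p = 0.718), 5.62 for Cxcl2 (adjusted p = 0.408) and 5.23 for Cxcl10 (adjusted p = 0.223). Cxcl3 had a mean of 9.34 against 3.02 in untreated cells, where 0 arrays were above background. IFNβ+zVAD+Nec-1 was called for 1 member against 1.81% of all genes, Cxcl10 (5.14, adjusted p = 0.0104), which was not called without untreated replicate 1 (4.69, adjusted p = 0.134), untreated replicate 2 (0.0678) or IFNβ+zVAD+Nec-1 replicate 1 (0.108). LPS+zVAD+Nec-1 was called for 1 member against 1.36% of all genes, again Cxcl10 (6.74, adjusted p = 0.00231, and 0.0551 without untreated replicate 1). Cxcl1 differed by 5.82 (adjusted p = 0.0552, or 0.0171 with the replicate block) and Cxcl2 by 5.80 (adjusted p = 0.052, or 0.0116 with the block). Without the array that stood apart 5 members were called in this comparison, Cxcl1 (9.13, adjusted p = 5.5e-05), Cxcl2 (8.62, adjusted p = 3.01e-04) and Cxcl10 (8.15, adjusted p = 9.07e-05), and also Cxcl3 (11.57, adjusted p = 6.21e-04, against 5.75 and 0.306 with it) and Cxcl9 (2.83, adjusted p = 0.0207, against 2.04 and 0.161), the remaining array being assumed to vary like the other groups.

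The next comparisons ask what the caspase inhibitor added to each stimulus. In WT cells LPS+zVAD against LPS was called for 1 member, where 35.5% of all genes were called, and that member was lower. Cxcl9 fell by 2.18 log2 (adjusted p = 0.017), on arrays of 13.40 and 12.85 with LPS against 12.35 and 9.53 with LPS+zVAD. Without WT LPS+zVAD replicate 2 its difference was -0.77 (adjusted p = 0.433), and without WT LPS replicate 1 it was -1.91 (adjusted p = 0.0954). Cxcl1 differed by 3.54 (adjusted p = 0.068, or 0.0368 with the replicate block) and Cxcl2 by 3.29 (adjusted p = 0.0844, or 0.0358 with the block), and both were called without the array that stood apart (adjusted p = 0.00898 and 0.0273). In Ifnar1-/- cells limma called no member for LPS+zVAD against LPS (0, with 1 at an unadjusted p under 0.05), where 8.8% of all genes were called. Cxcl10 differed there by 2.68 (adjusted p = 0.119) and Cxcl9 by -0.83 (adjusted p = 0.554). IFNβ+zVAD against IFNβ was called for no member in WT cells (0, with 1 at an unadjusted p under 0.05, and 0% of all genes by limma). The same comparison in Ifnar1-/- cells also gave no member (0, with 4 at an unadjusted p under 0.05, and 0.00657% of all genes).

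Nec-1 was then set against the same treatment without it. In WT cells LPS+zVAD+Nec-1 against LPS+zVAD was called for 1 member against 29.5% of all genes. Cxcl9 rose by 2.44 log2 (adjusted p = 0.0103), and without WT LPS+zVAD replicate 2 its difference was 1.03 (adjusted p = 0.308), and without WT LPS+zVAD+Nec-1 replicate 2 it was 2.29 (adjusted p = 0.0688). Cxcl1 differed by -2.93 (adjusted p = 0.149), and without the array that stood apart by the same value with an adjusted p of 0.0315. In Ifnar1-/- cells Nec-1 lowered 3 members, where 19.6% of all genes were called. The change was -5.32 for Cxcl1 (adjusted p = 0.0161), -5.19 for Cxcl2 (adjusted p = 0.0167) and -3.47 for Cxcl10 (adjusted p = 0.0236). These 3 calls rest on the array that stood apart, and without it the differences were -2.0 (adjusted p = 0.361), -2.37 (adjusted p = 0.331) and -2.05 (adjusted p = 0.312). They were also lost without either LPS+zVAD array, with adjusted p from 0.0644 to 0.134. With the replicate block limma called 6 members, adding Cxcl3 (-7.10, adjusted p = 0.0194, against 0.0518 without it), Ppbp (-1.22, 0.038 against 0.41) and Cxcl16 (-1.11, 0.0253 against 0.117). These too rest on the array that stood apart, since without it the unblocked differences were -1.28 for Cxcl3 (adjusted p = 0.784), -0.48 for Ppbp (adjusted p = 0.864) and -0.11 for Cxcl16 (adjusted p = 0.926). IFNβ+zVAD+Nec-1 against IFNβ+zVAD was called for no member in WT cells (0, with 0 at an unadjusted p under 0.05, and 0% of all genes by limma). The same comparison in Ifnar1-/- cells gave no member (0, with 2 at an unadjusted p under 0.05, and 1.59% of all genes), with Cxcl16 at -1.68 (adjusted p = 0.108, or 0.0123 with the replicate block and 0.0136 without the array that stood apart).

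**Figure D2:**
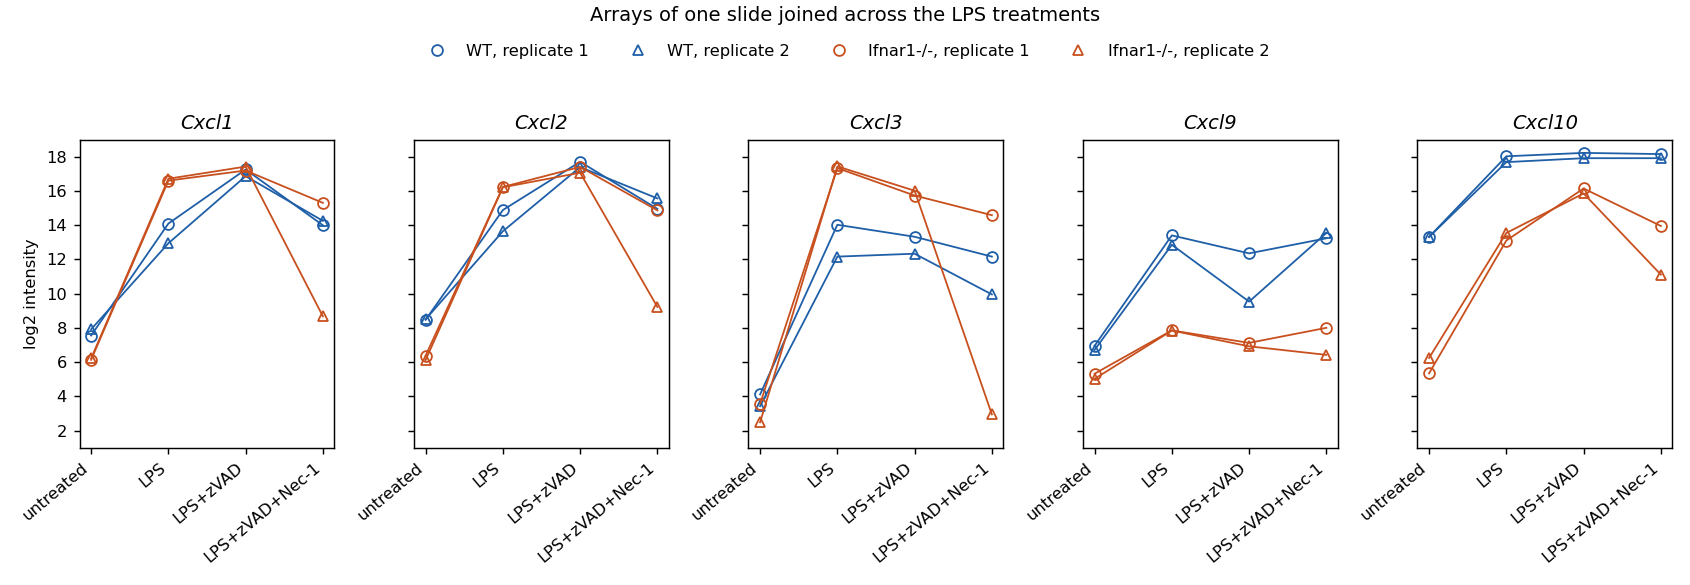
Log2 intensity (vertical axis) of 5 members in untreated, LPS, LPS+zVAD and LPS+zVAD+Nec-1 cells (horizontal axis), with the arrays of a slide joined by a line, WT in blue, Ifnar1-/- in orange, replicate 1 as circles and replicate 2 as triangles. The array of Ifnar1-/- LPS+zVAD+Nec-1 replicate 2 drops to 8.67 for Cxcl1 and 2.94 for Cxcl3 where its replicate reads 15.30 and 14.58. Cxcl9 dips in WT LPS+zVAD on both replicates, to 12.35 on replicate 1 and 9.53 on replicate 2.

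The genotypes were compared by the difference between their changes from untreated, Ifnar1-/- minus WT. For LPS 1 member was called against 7.02% of all genes, Cxcl9, whose rise was smaller in Ifnar1-/- cells (-3.61 log2, standard error 0.96, adjusted p = 0.027). With 1 array left out that call was lost in 7 of 8 cases, up to an adjusted p of 0.124 without WT LPS replicate 1. The rises of Cxcl1, Cxcl2 and Cxcl3 with LPS had larger values in Ifnar1-/- cells, but the differences of 4.70 (adjusted p = 0.205), 4.20 (adjusted p = 0.259) and 5.04 (adjusted p = 0.499) were not called. Without the array that stood apart, Cxcl1 was called (adjusted p = 0.0424). For IFNβ 2 members were called against 19.5% of all genes, Cxcl9 (-8.63, adjusted p = 6.25e-06) and Cxcl10 (-4.55, standard error 1.45, adjusted p = 0.034). The Cxcl10 call was lost with any of its 8 arrays left out, with adjusted p from 0.0538 to 0.108.

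No difference of change with zVAD alone was called (0 members by limma, 0 at an unadjusted p under 0.05, and 0% of all genes). With LPS+zVAD 1 member was called against 17% of all genes, Cxcl10, whose rise was larger in Ifnar1-/- cells by 5.46 (adjusted p = 0.0138). It was not called without Ifnar1-/- untreated replicate 1 (5.00, adjusted p = 0.0638). The mean level of Cxcl10 with LPS+zVAD was still lower in Ifnar1-/- than in WT cells, at 16 against 18.06. Its untreated means were 5.79 and 13.31. Cxcl9 had -2.26 in the comparison of changes with LPS+zVAD (adjusted p = 0.12). With IFNβ+zVAD the 1 member called against 20.2% of all genes was Cxcl9 (-7.71, adjusted p = 2.05e-05), with LPS+zVAD+Nec-1 it was Cxcl9 against 18.7% (-4.52, adjusted p = 0.00284, or -3.73 and 0.0192 without the array that stood apart), and with IFNβ+zVAD+Nec-1 it was Cxcl9 against 18.9% (-8.34, adjusted p = 9.32e-06). These comparisons share the untreated arrays of both genotypes. In untreated cells themselves Cxcl10 was lower in Ifnar1-/- than in WT cells (-7.52 log2, 183-fold, adjusted p = 8.82e-05), the 1 member called against 9.13% of all genes, and Cxcl9 differed by -1.66 (adjusted p = 0.151). Genotype and slide cannot be told apart in that last comparison, nor genotype and a response particular to a slide in the others.

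**Figure D3:**
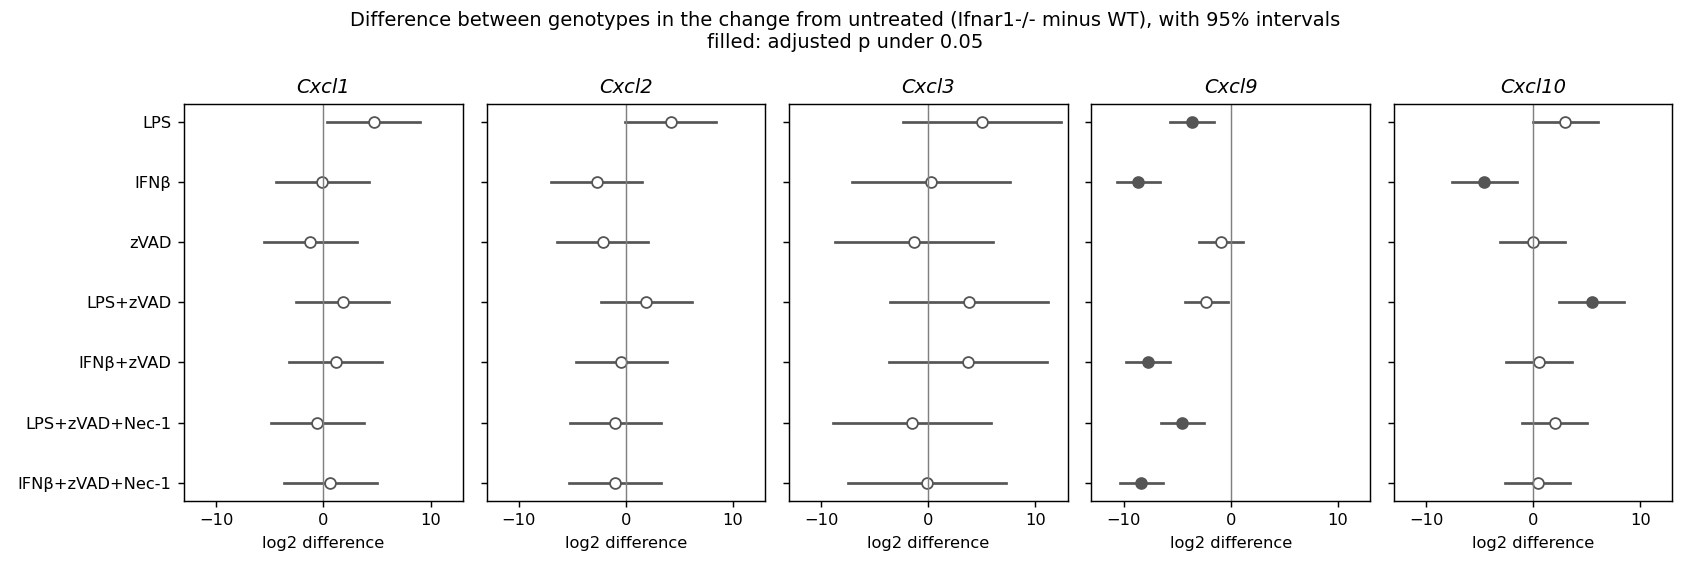
Difference between the genotypes in the log2 change from untreated (horizontal axis, Ifnar1-/- minus WT) for 5 members and 7 treatments (vertical axis), with 95% confidence intervals from limma and filled points where the adjusted p is under 0.05. Cxcl9 lies left of 0 in all 7 treatments and is called in 5, while Cxcl10 is called on the left with IFNβ (-4.55) and on the right with LPS+zVAD (5.46).

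The second probes bear on these calls. The second Cxcl9 probe (chr5:92752191-92752250) had the same sign as the used one wherever the used one was called, with a difference of change of -4.45 for LPS (adjusted p = 0.0381) and -10.83 for IFNβ (adjusted p = 9.64e-06). It called the untreated difference between the genotypes too (-3.31, adjusted p = 0.0234), and its fall with LPS+zVAD against LPS in WT cells was -2.24 with an adjusted p of 0.0589. The second Cxcl10 probe (chr5:92776616-92776675) was above background on 18 of 32 arrays, in Ifnar1-/- cells with LPS+zVAD alone among the treatments. Its WT arrays read 4.65 and 5.36 untreated and 11.52 and 9.60 with LPS, and its Ifnar1-/- arrays 2.36 and 2.28 untreated, 3.83 and 3.92 with LPS and 7.18 and 7.34 with LPS+zVAD. Both Cxcl10 probes were called for the rise in WT cells with LPS (5.56 on the second, adjusted p = 1.43e-05) and with IFNβ (7.46, adjusted p = 5.03e-07), and for the rise in Ifnar1-/- cells with LPS+zVAD (4.94, adjusted p = 1.44e-04).

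The Cxcl10 probes disagreed on how the genotypes differ. For LPS+zVAD the second probe gave -2.04 (adjusted p = 0.222) where the used probe gave 5.46. For LPS it gave -4.00 (adjusted p = 0.0291) where the used probe gave 2.99 (adjusted p = 0.262). For IFNβ both were called with the same sign, at -7.43 (adjusted p = 8.34e-05) and -4.55. The used probe was among the brightest of the WT arrays, and the second probe was not well above background in Ifnar1-/- cells outside LPS+zVAD, and the part of either in the disagreement was not tested. The larger rise of Cxcl10 with LPS+zVAD in Ifnar1-/- cells is a result of 1 probe.

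**Figure D4:**
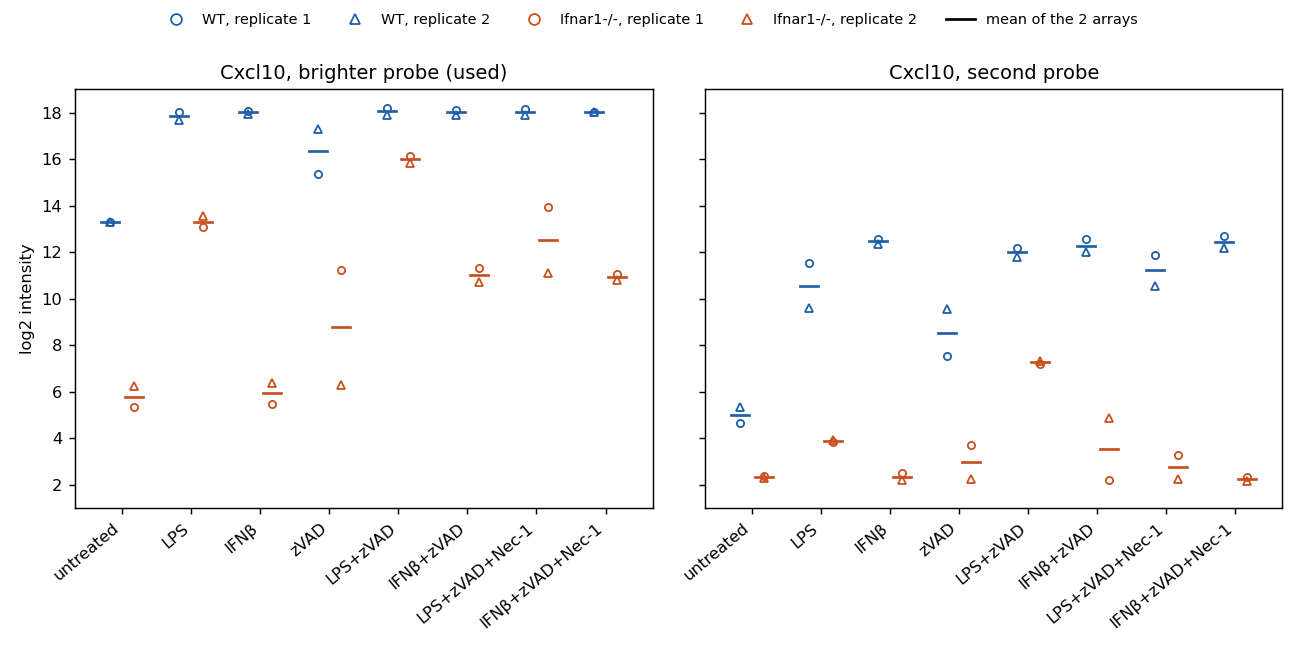
Log2 intensity (vertical axis) of the brighter, used Cxcl10 probe (left) and of the second probe (right) in the 8 treatments (horizontal axis), with WT in blue, Ifnar1-/- in orange, replicate 1 as circles, replicate 2 as triangles and bars at the mean of the 2 arrays. The used probe lies at 17.68 to 18.22 on all 12 WT arrays with LPS or IFNβ, while the second probe stays under 5 on all Ifnar1-/- arrays except those with LPS+zVAD (7.18 and 7.34).

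The classes were set against each other by a contrast, the mean change of Cxcl1, Cxcl2, Cxcl3 and Ppbp from untreated on the same slide minus the mean change of Cxcl9, Cxcl10 and Cxcl11. It is given with its SD over the 2 slides of a genotype and without a test, since the members were chosen with results known. In WT cells the contrast was 1.85 ± 0.43 with LPS and -3.73 ± 1.46 with IFNβ, on slides of 2.16 and 1.55 and of -4.77 and -2.70. The neutrophil-attracting side changed by a mean of 5.38 with LPS and 0.72 with IFNβ, and the CXCR3-binding side by 3.53 and 4.45. WT cells thus had a contrast of opposite sign for the 2 stimuli on both slides. With zVAD added it was 4.10 ± 0.49 for LPS+zVAD and -1.33 ± 1.71 for IFNβ+zVAD, the latter on slides of -2.54 and -0.12. With Nec-1 added as well it was 1.30 ± 0.13 and -3.05 ± 1.35, and with zVAD alone 1.85 ± 0.05. In each WT case the value with zVAD lay above that without it, and the value with Nec-1 below that with zVAD.

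In Ifnar1-/- cells the contrast was 5.97 ± 0.05 with LPS, on slides of 5.93 and 6.00, above both WT slides. The neutrophil-attracting side there changed by 9.27 and the CXCR3-binding side by 3.30. Within the former, Cxcl3 changed by 13.77 and 14.95 on the slides, from untreated arrays of which 0 were above background. Its untreated signal enters every Ifnar1-/- contrast as measured, so the SD does not cover this limit. The CXCR3-binding mean joins differences between the genotypes of opposite sign, -3.61 for Cxcl9, which was called, and 2.99 for Cxcl10, which was not. Those of Cxcl1, Cxcl2 and Cxcl3 behind the neutrophil-attracting mean were not called in the main fit. The result for Cxcl1 changed without the array that stood apart, as given above. A fit of only the arrays compared called more members for this difference. With IFNβ the contrast was 0.31 ± 0.21, both sides having changed by 0.40 or less. It was 5.08 ± 0.24 with LPS+zVAD, 2.05 ± 0.21 with IFNβ+zVAD, -0.32 ± 0.31 with IFNβ+zVAD+Nec-1 and 1.02 ± 1.07 with zVAD. LPS+zVAD+Nec-1 had 1.47 ± 3.27, from 3.78 on replicate 1 and -0.84 on the array that stood apart. Without Ppbp, which is dim, and Cxcl11, whose probe is shared with other genes, an option chosen after the values were seen, the contrast was 1.55 with LPS, -5.42 with IFNβ and -2.59 with IFNβ+zVAD in WT cells and 6.50 with LPS and 0.32 with IFNβ in Ifnar1-/- cells.

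**Figure D5:**
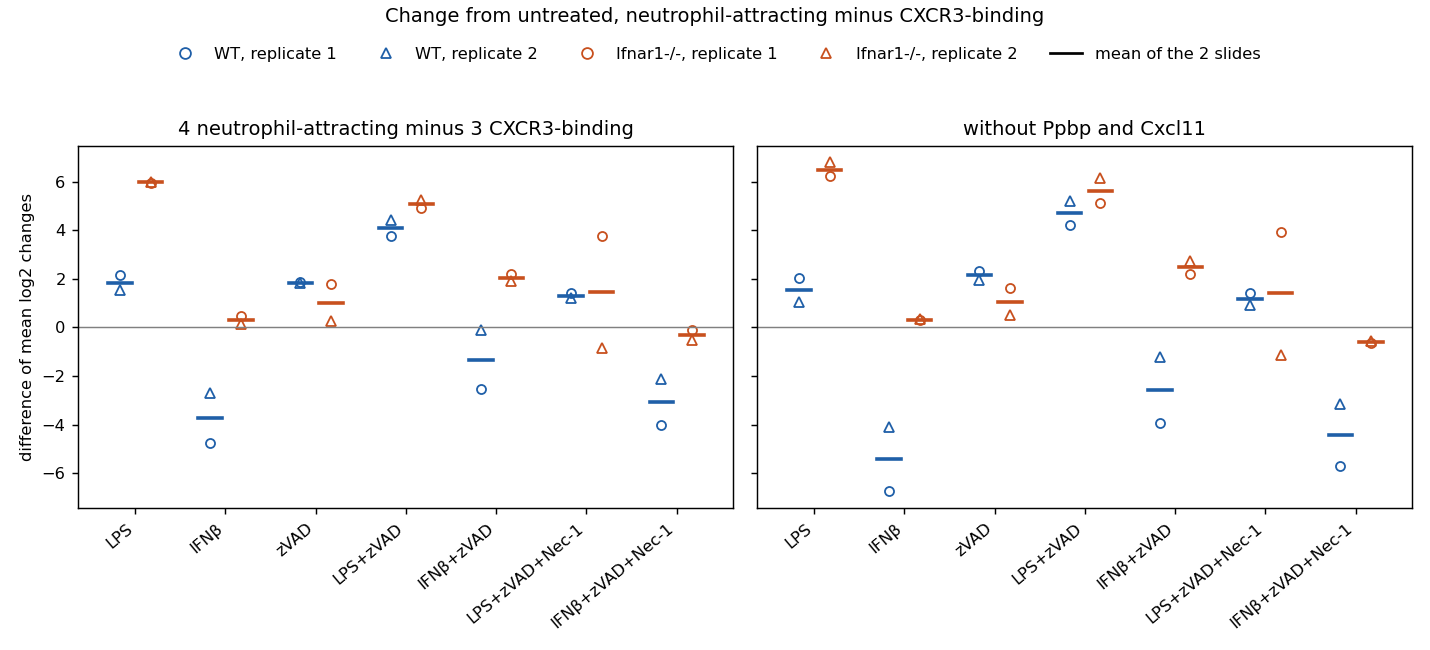
Mean log2 change from untreated of the neutrophil-attracting genes minus that of the CXCR3-binding genes (vertical axis) in 7 treatments (horizontal axis), for all 7 genes (left) and without Ppbp and Cxcl11 (right), with each slide as a point and bars at the mean of the 2 slides. WT slides (blue) lie below 0 with IFNβ and above 0 with LPS, and Ifnar1-/- slides (orange) lie at 5.93 and 6.00 with LPS and between 0.16 and 0.46 with IFNβ in the left panel.

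Pearson correlations were taken across the 16 group means of log2 intensity, where both genes of a pair are read from the same arrays. The correlation was 0.94 between Cxcl1 and Cxcl2, 0.95 between Cxcl1 and Cxcl3, 0.83 between Cxcl2 and Cxcl3 and 0.83 between Cxcl9 and Cxcl10. Between these classes Cxcl9 had 0.20, 0.49 and 0.06 with Cxcl1, Cxcl2 and Cxcl3, and Cxcl10 had 0.58, 0.79 and 0.40. Inside the classes Ppbp had 0.44, 0.17 and 0.61 with Cxcl1, Cxcl2 and Cxcl3. Cxcl11 had 0.11 with Cxcl9 and 0.17 with Cxcl10. Likeness of other genes was measured in the same way, as a description. The genes nearest to Cxcl1 were Slc25a33 (0.957), Il1a (0.947), which encodes interleukin 1α, and Olr1 (0.946). Those nearest to Cxcl2 were Tnf (0.969), which encodes TNFα, Clec4e (0.962), which encodes the receptor Mincle, and Ier3 (0.959). For Cxcl3 they were Nck1 (0.969), Ccl9 (0.967) and Adam17 (0.964). The list for Cxcl10 held Ifit1 (0.990), Oasl1 (0.990) and Isg15 (0.954), all known as interferon-stimulated genes, and that for Cxcl9 held Aida (0.992), 4933412E12Rik (0.991) and Serpina3g (0.991). For Ppbp the nearest gene was Niban3 (0.943), for Cxcl16 Fabp2 and Foxi2 (0.946 each) and for Cxcl11 Dnajc5 (0.875), the lowest of the 8.

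The pathways that feed these genes were read from lists of names. Among 10 NF-κB subunits and feedback genes, 7 rose and 0 fell with LPS in WT cells, where 42.2% of all genes were called (median change 2.24 against -0.08 over all genes), with Tnfaip3 (4.61), which encodes the inhibitor A20, and Nfkbiz (3.97), which encodes IκBζ, largest. With LPS in Ifnar1-/- cells 9 rose and 0 fell against 26% of all genes called (median 2.78 against -0.06), again with Nfkbiz (4.71) and Tnfaip3 (3.91) largest. IFNβ raised 2 of the 10 in WT cells, Tnfaip3 (2.57) and Nfkbib (1.41), a smaller share than the 36.2% of all genes called. At an unadjusted p under 0.05 in limma, however, 7 of the 10 passed, against 6719 of 15218 genes. The median change of the list was 1.33 against -0.17 over all genes. In Ifnar1-/- cells IFNβ raised 0 of the 10 (0 at an unadjusted p under 0.05 in limma), where 0% of all genes were called. For the differences of change with LPS 0 of the 10 were called (0 at an unadjusted p under 0.05), against 7.02% of all genes.

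Among 12 interferon signalling genes, 5 rose with LPS in WT cells, led by Ifnb1 (4.89), which encodes IFNβ, Irf7 (3.04) and Stat2 (1.61), a subunit of ISGF3 (median of the list 0.61 against -0.08 over all genes). Their share was near the 42.2% of all genes called there. With IFNβ 6 rose and 1 fell against 36.2% of all genes, led by Ifnb1 (4.76), Irf7 (4.26) and Stat2 (2.99). In the absence of Ifnar1 LPS raised 2 of the 12, Ifnb1 (8.77) and Irf1 (1.78), and lowered Irf8 (-1.40), again a share near that of all genes (26%), while IFNβ changed 0 (0 at an unadjusted p under 0.05 in limma) against 0% of all genes. The change with LPS was smaller in Ifnar1-/- cells for Irf7 (-3.87) and Stat2 (-2.15), the 2 of 12 called for that difference against 7.02% of all genes. In untreated cells 5 of the 12 were lower in Ifnar1-/- than in WT cells, against 9.13% of all genes, led by Irf7 (-5.67), Irf9 (-2.86) and Ifnar1 itself (-2.33, adjusted p = 0.0315), with the limit on slides given above. The Ifnar1 value is that of its brightest probe, whose ranges over all arrays overlapped between the genotypes.

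Among 7 genes of AU-rich element binding proteins and MK2, which act on the stability of chemokine mRNAs, 4 rose and 2 fell with LPS in WT cells against 42.2% of all genes. Zfp36, which encodes TTP, rose by 2.53, and its relatives Zfp36l2 (-4.07) and Zfp36l1 (-3.51) fell. With LPS in Ifnar1-/- cells 2 rose and 2 fell against 26% of all genes, with Mapkapk2, which encodes MK2, at 2.86 and Zfp36l1 at -4.64. Of the receptors 5 of 8 had a testable probe, and LPS changed 2 of these 5 in each genotype against the same 42.2% and 26% of all genes. It lowered Cxcr4, the receptor of CXCL12, by a change of -6.68 in WT and -5.55 in Ifnar1-/- cells, and Cxcr3, the receptor of CXCL9 and CXCL10, by -3.67 and -2.77. For CXCL16, LPS lowered its sheddase Adam10 (-1.46 in WT and -1.07 in Ifnar1-/- cells) and raised Adam17 (1.11 and 1.45), so that both of the 2 sheddases listed were called beside those shares of all genes. Of 7 further CXC chemokines 3 were testable, and of these LPS changed 1 in WT cells (Cxcl14, -1.32) against 42.2% of all genes and 2 in Ifnar1-/- cells (Pf4, 1.89, and Cxcl14, -1.60) against 26%.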

How the data were processed

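The 32 samples were run on 1-colour Agilent SurePrint G3 mouse arrays, which were read by Feature Extraction. Per the file headers the deposited intensity of a spot (gProcessedSignal) is background-subtracted, detrended and replaced by a surrogate where very dim. The authors' own table of deposited log2 values covers 38406 probes with any value and was used as an alternative. The build in the scanner files is mm9, and promoter sequences are from GRCm38.p6, so the coordinates of the 2 are not compared. Probe names were matched to RefSeq symbols for 31281 of 55681 probes, and 1919 of these came through a synonym.

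From these files, outlier spots (130 to 499 per array) were dropped, the log2 of each intensity was quantile-normalized, and the brightest probe of a gene was kept if well above background on at least 50% of the arrays. Probes well above background made up 55.6% to 78.3% of the WT arrays and 45.4% to 62.1% of the Ifnar1-/- arrays. A single fit in limma 3.58.1 (R 4.3.3) of the 16 group means gave every comparison, with Benjamini-Hochberg adjustment over 15218 genes. Another gene had no value in a group and was left out. Groups and replicate numbers are those of the sample titles. The numbers pair the samples, because each slide holds 1 replicate number of 1 genotype and the deviations of its arrays from their group means correlated at 0.31 to 0.67 in WT and 0.16 to 0.57 in Ifnar1-/- cells (28 pairs each). The blocked fit is printed where it changes a call. Alternatives were a 75th percentile shift, normexp, other filters, the mean of all probes, the authors' values, subsets of arrays and leaving out each array. On simulated data for WT LPS against untreated, with 200 of 15218 genes changed, 114 were called, 4 of them false, with 81 of 100 found at 2 log2 and 29 of 100 at 1 log2. In the data 42.2% of all genes were called in that comparison, and the standard errors were 1.46 for Cxcl1 and 2.49 for Cxcl3. The shares found in the simulation therefore need not hold for the members. The text names all 8 members, the 3 genes most like each (fewer where stated) and up to 3 genes of a list with the largest changes. Members, lists and tests were chosen with earlier results of these data known.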

Additional observations from a re-analysis of the deposited data

Results flagged for a closer look

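Each difference below was flagged because the change from untreated differed between the genotypes in the test of the difference itself, a contrast of the 4 groups in limma. For Cxcl9 the difference, Ifnar1-/- minus WT, was -3.61 log2 with LPS, -8.63 with IFNβ, -7.71 with IFNβ+zVAD, -4.52 with LPS+zVAD+Nec-1 and -8.34 with IFNβ+zVAD+Nec-1. For Cxcl10 it was -4.55 with IFNβ and 5.46 with LPS+zVAD, and the second Cxcl10 probe gave -7.43 and -2.04 for the same differences.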

How the results depend on the processing

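With 2 arrays in a group, many calls stand close to the limit of the test. Of the 51 called results of members, 487 of 505 values under other settings kept direction and call, 18 lost the call and 0 turned. With 1 array left out 181 of 232 kept the call and 51 lost it. Of 40 results named but not called, 67 of 389 values passed the test under another setting and 7 turned, and with 1 array left out 8 of 184 passed it and 1 turned. The cause of these moves was not tested, apart from what the design fixes. A fit of only the arrays compared has fewer degrees of freedom. Leaving out the array that stood apart keeps the log2 differences of comparisons without its group, such as 3.54 for Cxcl1 in WT LPS+zVAD against LPS. It alters only the spread pooled over the groups and its degrees of freedom. The authors' values could not give member counts, because Cxcl16 lacks values on some arrays there, and comparisons of the Ifnar1-/- LPS+zVAD+Nec-1 pair have no value without it.

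Counts of members called that moved by more than 1.5 times are given first. With the slide as a replicate block they were 4 for WT IFNβ, 5 for WT IFNβ+zVAD, 3 for Ifnar1-/- LPS+zVAD+Nec-1, 3 for WT LPS+zVAD against LPS, 6 for Ifnar1-/- LPS+zVAD+Nec-1 against LPS+zVAD and 1 for Ifnar1-/- IFNβ+zVAD+Nec-1 against IFNβ+zVAD. Without the array that stood apart, chosen after seeing the data, they were 5 for Ifnar1-/- LPS+zVAD+Nec-1, 3 for WT LPS+zVAD against LPS, 2 for WT LPS+zVAD+Nec-1 against LPS+zVAD, 0 for that comparison in Ifnar1-/- cells, 1 for Ifnar1-/- IFNβ+zVAD+Nec-1 against IFNβ+zVAD and 2 for the difference with LPS. Without both arrays of that group the last 2 were again 1 and 2, and the WT counts were 3 and 2. With only the arrays compared they were 0 for Ifnar1-/- LPS+zVAD+Nec-1, 3 for Ifnar1-/- IFNβ+zVAD+Nec-1, 2 for WT LPS+zVAD against LPS, 5 for it in Ifnar1-/- cells, 2 for WT LPS+zVAD+Nec-1 against LPS+zVAD, 0 for it in Ifnar1-/- cells, 5 for the differences with LPS and with LPS+zVAD and 4 for untreated Ifnar1-/- against WT. With the mean of all probes they were 0 for Ifnar1-/- IFNβ+zVAD+Nec-1, 1 for Ifnar1-/- LPS+zVAD against LPS, 0 for the difference with LPS+zVAD, 2 for that with IFNβ+zVAD+Nec-1 and 2 for untreated Ifnar1-/- against WT. WT LPS+zVAD against LPS had 2 with the 75th percentile shift and with normexp, and normexp gave 1 for it in Ifnar1-/- cells and 2 for the difference with LPS+zVAD. No filter on dim probes gave 1 for the difference with IFNβ. Smaller moves, of 1 or 2 members, were with the block 6 for WT LPS+zVAD, 4 for WT IFNβ+zVAD+Nec-1 and for WT LPS against IFNβ and 7 for Ifnar1-/- LPS and LPS+zVAD, and without the array that stood apart or without its pair 3 for WT IFNβ and 4 for WT IFNβ+zVAD. With only the arrays compared they were 3 for WT IFNβ, 4 for WT IFNβ+zVAD, 7 for Ifnar1-/- LPS and LPS+zVAD, 2 for WT LPS against IFNβ and 3 for the difference with IFNβ. The 75th percentile shift and normexp both gave 4 for WT IFNβ+zVAD, 6 for Ifnar1-/- LPS, 4 for Ifnar1-/- LPS+zVAD and 4 for Ifnar1-/- LPS+zVAD+Nec-1 against LPS+zVAD, the shift also 6 for WT LPS+zVAD, and both other filters 4 for Ifnar1-/- LPS+zVAD. With 1 array left out the counts ranged from 5 to 5 for WT LPS and WT LPS+zVAD, 3 to 4 for WT IFNβ+zVAD, 4 to 5 for WT LPS+zVAD+Nec-1 and Ifnar1-/- LPS, 0 to 5 for Ifnar1-/- LPS+zVAD+Nec-1 and for it against LPS+zVAD, 0 to 3 for WT LPS against IFNβ, 0 to 2 for the difference with LPS+zVAD and 1 to 3 for that with LPS+zVAD+Nec-1. It was 2 throughout for WT IFNβ and WT IFNβ+zVAD+Nec-1, 4 for Ifnar1-/- LPS+zVAD and 1 for the difference with IFNβ, and 0 to 1 for Ifnar1-/- zVAD, Ifnar1-/- IFNβ+zVAD+Nec-1, WT LPS+zVAD against LPS, WT LPS+zVAD+Nec-1 against LPS+zVAD and the difference with LPS.

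The class contrast in WT cells was, under normexp, 1.16 with LPS, 1.17 with zVAD, 3.38 with LPS+zVAD and 0.74 with LPS+zVAD+Nec-1, and in Ifnar1-/- cells 5.39 with LPS, 4.36 with LPS+zVAD and 1.41 with IFNβ+zVAD. The 75th percentile shift gave 1.79 with zVAD and 0.97 with LPS+zVAD+Nec-1 in WT and 5.87 with LPS in Ifnar1-/- cells. The mean of all probes gave 1.71, 3.51 and 0.88 for WT zVAD, LPS+zVAD and LPS+zVAD+Nec-1, and 6.82, 0.52, 5.83 and 2.66 for Ifnar1-/- LPS, IFNβ, LPS+zVAD and IFNβ+zVAD. The authors' values gave 1.54, 3.37 and 1.1 for the same WT groups and 5.81, 4.78 and 1.80 for Ifnar1-/- LPS, LPS+zVAD and IFNβ+zVAD. For WT IFNβ+zVAD, whose slides lay far apart, they gave -2.63. Without Ppbp and Cxcl11 it was -5.42, 2.15, 4.72, -2.59 and -4.41 for WT IFNβ, zVAD, LPS+zVAD, IFNβ+zVAD and IFNβ+zVAD+Nec-1 and 6.50, 5.63 and 2.48 for Ifnar1-/- LPS, LPS+zVAD and IFNβ+zVAD. It turned for Ifnar1-/- LPS+zVAD+Nec-1 (-0.53 with the authors' values, and -0.84 to 3.78 over single slides) and for Ifnar1-/- IFNβ+zVAD+Nec-1 (0.67 with the mean of all probes). Over single slides it ranged from 1.55 to 2.16 for WT LPS, -4.77 to -2.70 for IFNβ, 1.82 to 1.89 for zVAD, 3.76 to 4.44 for LPS+zVAD, -2.54 to -0.12 for IFNβ+zVAD, 1.21 to 1.40 for LPS+zVAD+Nec-1 and -4.01 to -2.10 for IFNβ+zVAD+Nec-1. For Ifnar1-/- cells the ranges were 5.93 to 6.00 for LPS, 0.16 to 0.46 for IFNβ, 0.27 to 1.78 for zVAD, 4.91 to 5.25 for LPS+zVAD, 1.91 to 2.20 for IFNβ+zVAD and -0.53 to -0.10 for IFNβ+zVAD+Nec-1. Single results that turned were Cxcl11 under the 75th percentile shift, with 0.25 for WT LPS, 0.38 for WT IFNβ, 0.56 for WT LPS+zVAD, 0.33 for WT IFNβ+zVAD and 0.04 for Ifnar1-/- LPS, Cxcl3 in Ifnar1-/- cells with LPS+zVAD+Nec-1 (-0.07 to 11.57 with 1 array left out, the lowest without LPS+zVAD+Nec-1 replicate 1), and the Cxcl10 difference with the mean of its probes, at -0.50 with LPS and -1.88 with LPS+zVAD+Nec-1.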
